A study of Rattus norvegicus with 10 samples.

Results

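Elastin (Eln), lysyl oxidase-like 1 (Loxl1), elastin microfibril interfacer 1 (Emilin1) and latent transforming growth factor beta binding protein 1 (Ltbp1) are 4 genes of the elastic fibre, its cross-linking and its scaffold. They were taken by symbol from a table of 1319 lung genes, each of which carries an unadjusted p-value under 0.05 for genotype in the authors' deposited table. All 4 were found, 1 row each, and all 4 were among the 1308 genes that passed a filter on low values. They were selected on measured values, namely their higher levels in Cmg2-KO than in WT lung in this same table, so their difference between genotypes is described here and not tested.

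The study sequenced RNA from lungs of Sprague Dawley rats, an outbred stock, at an age of 8 weeks. Analysed here were 5 Cmg2-KO libraries, from rats lacking both copies of Cmg2, and 5 WT libraries of the same strain, tissue and age. The series' design text speaks of sextuplicates, and libraries beyond these 10 were not analysed here. Cmg2, also named Antxr2, encodes a cell-surface protein that takes up anthrax toxin and binds components of the extracellular matrix. The labels describe neither the knockout allele nor whether each library came from its own animal. The tests below treat the libraries as independent, so their p-values concern libraries and not a known number of animals. Values are scaled counts, that is, numbers of reads that the authors adjusted by a size factor for each library. They summed to between 1386578 and 1531531 over the table in Cmg2-KO and between 1430655 and 1448851 in WT. Total depth is unknown. Antxr2 itself was not analysed here, and its transcript therefore gives no check of the genotype labels. Of 10 lung epithelial markers, the table holds surfactant protein gene Sftpb and club cell gene Scgb1a1, both with reads in all 10 libraries.

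Elastic fibres give the lung its recoil. Cells secrete tropoelastin, the product of Eln, and microfibrils guide its deposition. Lysyl oxidases such as Loxl1 oxidise lysines so that elastin monomers become cross-linked, and mice without Loxl1 fail to renew elastic fibres and develop enlarged airspaces. Emilin1 is a glycoprotein at the interface of elastin and microfibrils. Ltbp1 holds latent transforming growth factor beta (TGF-β) and anchors it to the matrix. Most elastin is laid down during late development and early postnatal growth, mainly by smooth muscle cells and alveolar myofibroblasts.

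Of the 4 genes, 2 were matched to RefSeq promoters on build GRCr8, Loxl1 and Ltbp1, and both promoters are shown. Those of Eln and Emilin1 were not used here. Each spans 250 bases before to 50 bases after the annotated gene start. They are shown so that the upstream letters of an enzyme gene and of a scaffold gene can be compared. Capitals mark matches on either strand to the SMAD half-site CAGAC, in both promoters, and to the cyclic AMP response element TGACGTCA, in that of Ltbp1.
Loxl1, chr8:67612175-67612474, minus strand: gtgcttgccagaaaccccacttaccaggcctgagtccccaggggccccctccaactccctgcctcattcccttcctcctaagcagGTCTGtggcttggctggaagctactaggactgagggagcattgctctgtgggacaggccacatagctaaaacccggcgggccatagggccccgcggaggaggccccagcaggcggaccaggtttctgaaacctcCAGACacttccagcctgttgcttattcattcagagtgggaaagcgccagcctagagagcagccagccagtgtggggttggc
Ltbp1, chr6:26177252-26177551, minus strand: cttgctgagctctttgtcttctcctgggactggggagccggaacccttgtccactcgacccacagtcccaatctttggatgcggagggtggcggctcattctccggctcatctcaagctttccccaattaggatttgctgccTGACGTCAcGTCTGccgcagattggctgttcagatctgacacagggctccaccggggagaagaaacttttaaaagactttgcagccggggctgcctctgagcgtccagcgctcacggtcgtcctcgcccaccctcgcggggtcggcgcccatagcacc
CAGAC matched at 2 places in the Loxl1 promoter and at 1 place in that of Ltbp1, and 50.1% of all 33469 promoters of this length hold it. TGACGTCA matched at 1 place in the Ltbp1 promoter, overlapping no other match, and is held by 1.83% of all promoters. Neither promoter holds TATAAA (14.2% of all promoters), GGGCGG (33.1%), CACGTG (6.42%) or a CArG box (1.64%), each searched on both strands. GC content was 61.0% in the Loxl1 promoter and 60.0% in that of Ltbp1, against a median of 51.7% over all promoters. No binding or methylation was measured, and these matches are a description of the letters.

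Eln, the structural core, had the highest level of the 4 genes. It lies on chromosome 12 at 24978483 to 25021863, plus strand, in the coordinates of the authors' table, whose build is not given in the sources used here. Eln stood at 9838, 17639, 7131, 17754 and 21159.9 scaled counts in Cmg2-KO libraries 1 to 5, and at 11241.5, 5862, 5863, 10799 and 9967 in WT libraries 1 to 5. Cmg2-KO 2, 4 and 5 lay above every WT library, whereas Cmg2-KO 1 and 3 lay within the WT range, so the groups overlap. The means were 14704 ± 5929 in Cmg2-KO and 8746 ± 2672 in WT (SD, n = 5 each), 1.68-fold higher in Cmg2-KO, and on the log2 scale the difference was 0.70 ± 0.32 (SE, limma).

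Loxl1, the cross-linking enzyme, separated the genotypes completely. The gene lies on chromosome 8 at 63067300 to 63092009, minus strand. It stood at 3084, 3469.75, 3315, 3422 and 3477 scaled counts in Cmg2-KO libraries 1 to 5, and at 2562, 1989, 2657, 2636 and 1752 in WT libraries 1 to 5. The lowest Cmg2-KO library lay above the highest WT library. The means were 3353 ± 164 in Cmg2-KO and 2319 ± 419.5 in WT (SD, n = 5 each), a log2 fold change of 0.55 ± 0.12 (SE, limma). Loxl1 was the only 1 of the 4 genes whose groups did not overlap, and 9.25% of the 1319 genes in the table were higher in Cmg2-KO without overlap. It was also the only 1 that the authors' deposited table calls at an adjusted p below 0.05 (0.00653). That table calls 3.11% of its genes as higher in Cmg2-KO, which is 0.206% of the 19894 genes behind its adjustment. Both counts concern the contrast that chose the genes. The limma fit made here, adjusted over the same 19894 genes, did not call Loxl1 (adjusted p = 0.439). Other tools were run on reads recovered from the scaled counts of 9 libraries. There edgeR and limma-voom called 0% of genes higher in Cmg2-KO, and DESeq2 called 2.3%. In DESeq2 the log2 fold change of Loxl1 was 0.58 ± 0.13 (SE).

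Emilin1, which joins elastin to microfibrils, lies on chromosome 6 at 26821255 to 26828972, minus strand. It stood at 2158, 2538, 1902, 2427 and 2751 scaled counts in Cmg2-KO libraries 1 to 5, and at 1852, 1791, 1856, 2035 and 1212 in WT libraries 1 to 5. The groups overlapped only through Cmg2-KO 3, which lay below WT 4. WT 5 lay well below the other WT libraries. The means were 2355 ± 332 in Cmg2-KO and 1749 ± 314 in WT (SD, n = 5 each), a log2 fold change of 0.44 ± 0.14 (SE, limma).

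Ltbp1, the TGF-β anchor, had the smallest difference of the 4 genes. It lies on the same chromosome as Emilin1 at 21203502 to 21600451, minus strand. It stood at 2803, 2718, 2297, 2319.7 and 3302 scaled counts in Cmg2-KO libraries 1 to 5, and at 1958, 2225, 2346, 2425 and 2237 in WT libraries 1 to 5. Cmg2-KO 1, 2 and 5 lay above all WT libraries, and Cmg2-KO 3 and 4 lay inside the WT range. The means were 2688 ± 412 in Cmg2-KO and 2238 ± 177 in WT (SD, n = 5 each), a log2 fold change of 0.25 ± 0.10 (SE, limma). The authors' deposited table ranks the 4 genes by p-value at places 29 (Loxl1), 236 (Emilin1), 615 (Ltbp1) and 747 (Eln) of 1319, so Eln and Ltbp1 stand closer to the cut of 0.05 that made the table. Their p-values in the authors' deposited table were 0.0217 for Eln and 0.0161 for Ltbp1.

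**Figure D1:**
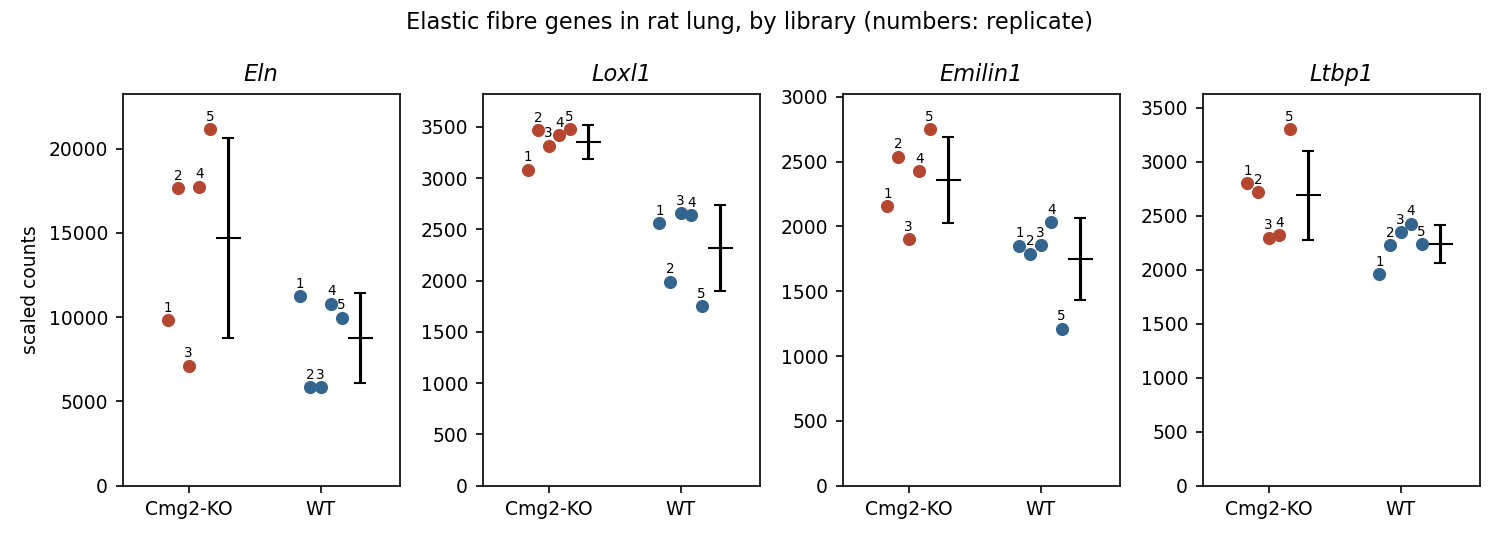
Scaled counts (vertical axes, from 0) of Eln, Loxl1, Emilin1 and Ltbp1 in the 5 Cmg2-KO and 5 WT libraries. Points are libraries numbered by replicate, and bars give the mean ± SD. Loxl1 shows no overlap, with Cmg2-KO at 3084 to 3477 and WT at 1752 to 2657, while Eln spreads from 7131 to 21159.9 in Cmg2-KO.

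Counting error was small beside these spreads. The reads behind a value ranged from 1152 (Emilin1 in WT 5) to 20354 (Eln in Cmg2-KO 5), and the largest counting error, taken as the square root of the reads, was 2.95% of the value. By contrast, the coefficient of variation of Eln was 40.3% among Cmg2-KO libraries and 30.6% among WT libraries. That of Loxl1 was 4.90% in Cmg2-KO and 18.1% in WT, that of Emilin1 14.1% in Cmg2-KO and 17.9% in WT, and that of Ltbp1 15.3% in Cmg2-KO and 7.90% in WT. Loxl1 was thus tightest in Cmg2-KO and Eln loosest, while the difference in spread between genotypes was not tested. RefSeq places a long noncoding gene within the span of Eln (LOC102553484) and of Ltbp1 (LOC120103479) on GRCr8. The library kit is not stated to keep strand, so reads of such neighbours could be counted with these 2 genes.

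Per kilobase of the gene length given by the authors, the order of levels was Eln, Loxl1, Emilin1 and Ltbp1 in both genotypes. Eln averaged 4098 ± 1653 scaled counts per kilobase in Cmg2-KO and 2438 ± 745 in WT (SD, n = 5 each). Loxl1 averaged 1201 ± 58.8 in Cmg2-KO and 830.4 ± 150.2 in WT on this scale, Emilin1 614 ± 86.4 in Cmg2-KO and 456 ± 81.8 in WT, and Ltbp1 430.4 ± 66.0 in Cmg2-KO and 358 ± 28.3 in WT. Within each genotype the Eln and Loxl1 values did not overlap each other, nor did those of Loxl1 and Emilin1, whereas Emilin1 and Ltbp1 overlapped. The ratio of Eln to Loxl1 per length was 2.48, 3.96, 1.67, 4.04 and 4.74 in Cmg2-KO libraries 1 to 5, and 3.42, 2.29, 1.72, 3.19 and 4.43 in WT libraries 1 to 5. The ratio varied widely inside either genotype and the groups overlapped, with means of 3.38 ± 1.26 in Cmg2-KO and 3.01 ± 1.05 in WT (SD, n = 5 each).

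Within the genotypes, 1 of the 6 pairs of these genes varied together beyond the test's threshold. Each genotype mean was subtracted from the log2(scaled count + 1) values, and the 6 pairs of genes were correlated over the 10 libraries. Only Loxl1 and Emilin1 passed, with Pearson's r of 0.76 (exact permutation within genotypes, two-sided p = 0.00792, adjusted p = 0.0475 over 6 pairs) and Spearman's rho of 0.90 (exact permutation p = 0.00431, adjusted p = 0.0258). Without WT 2 and WT 5, the libraries farthest from the median of Loxl1, r was 0.62 (exact permutation p = 0.224). Without WT 5 alone r was 0.41, and without WT 2 alone 0.87. Its adjusted p was above 0.05 under each other library scaling tried (0.135 to 0.355, exact permutation tests). It was also above 0.05 (0.0646 to 0.224) when any 1 library other than Cmg2-KO 1 or Cmg2-KO 3 was left out. Of all 854778 pairs of tested genes, 1.38% had an r at least as high as that of Loxl1 and Emilin1.

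The other 5 pairs did not pass, with r of 0.40 for Eln and Emilin1 (adjusted p = 0.546), 0.38 for Emilin1 and Ltbp1 (0.546), 0.28 for Eln and Ltbp1 (0.627), 0.19 for Eln and Loxl1 (0.627) and 0.06 for Loxl1 and Ltbp1 (0.860), all by exact permutation within genotypes over 10 libraries. Spearman's rho for these pairs was 0.60 (Eln and Emilin1, adjusted p = 0.218), 0.65 (Emilin1 and Ltbp1, 0.218), 0.25 (Eln and Ltbp1, 0.544), 0.45 (Eln and Loxl1, 0.295) and 0.45 (Loxl1 and Ltbp1, 0.295), again by exact permutation. The median r of the 6 pairs was 0.33, against 0.01 over all gene pairs, whose 90th percentile was 0.51. The median over all gene pairs was 0.27 when the sign of r was ignored. Of all gene pairs, 16.6% had an r at least as high as that of Eln and Emilin1, and 45.5% one at least as high as that of Loxl1 and Ltbp1. The other 3 pairs that did not pass lay between these shares. All values of a library share its size factor, which can move genes together.

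Single libraries took different places in the order of different genes. In Cmg2-KO, libraries 5, 4 and 2 were the highest 3 for both Eln and Emilin1, and libraries 1 and 3 the lowest, with library 3 at the bottom in both. Loxl1 also had libraries 2, 4 and 5 on top in Cmg2-KO, but library 1 at the bottom. In WT the order was different. WT 5 stood 0.51 log2 units below its genotype mean in Emilin1 and 0.38 below in Loxl1, but 0.25 above in Eln. WT 3 stood 0.52 below its genotype mean in Eln, and above it in the other 3 genes. Without WT 5, Eln and Loxl1 correlated at r = 0.49 (adjusted p = 0.224, exact permutation) and Loxl1 and Emilin1 at r = 0.41 (adjusted p = 0.224). Eln and Emilin1 then correlated at r = 0.88 (exact permutation within genotypes, adjusted p = 0.0312 over 6 pairs). WT 5 was singled out from these same values and the adjustment does not cover that choice, so the 0.88 is a description. For Eln and Emilin1, r was 0.15 without Cmg2-KO 3 (adjusted p = 0.940, exact permutation) and 0.22 without Cmg2-KO 3 and WT 2. With 5 libraries in each genotype, no correlation was computed inside a single genotype, and a difference in covariation between Cmg2-KO and WT was not tested.

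**Figure D2:**
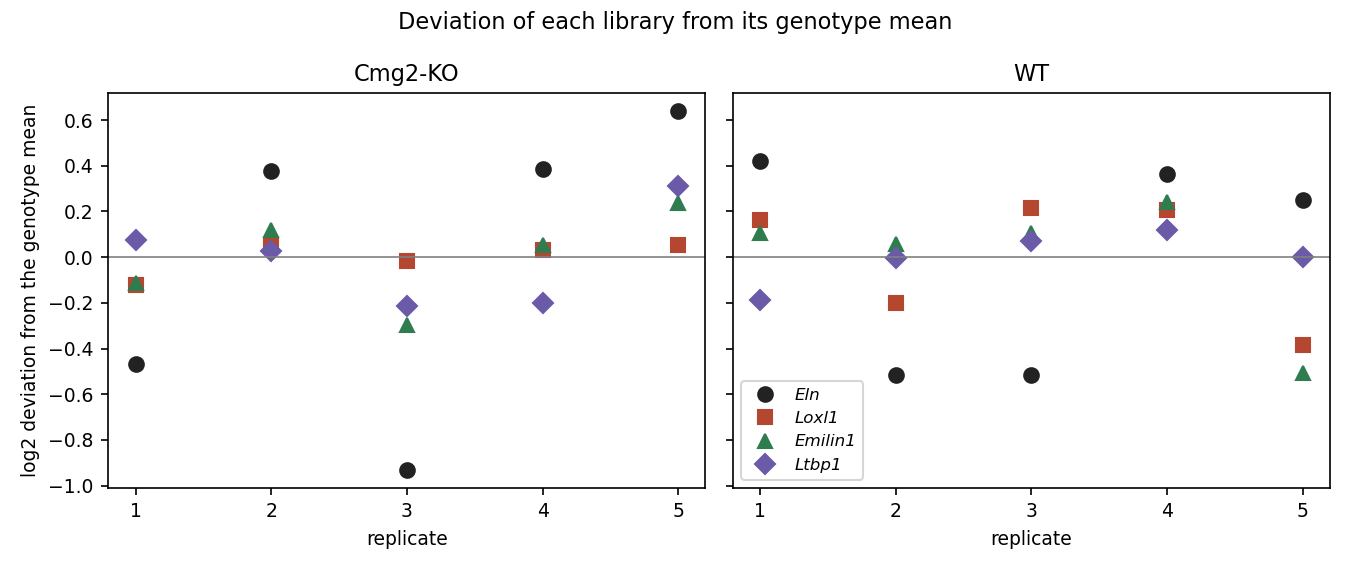
Deviation of each library from its genotype mean (vertical axis, log2 units) for Eln, Loxl1, Emilin1 and Ltbp1, by replicate in Cmg2-KO (left) and WT (right). Eln spans the widest range, down to -0.93 in Cmg2-KO 3. WT 5 is low in Loxl1 and Emilin1 but not in Eln.

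**Figure D3:**
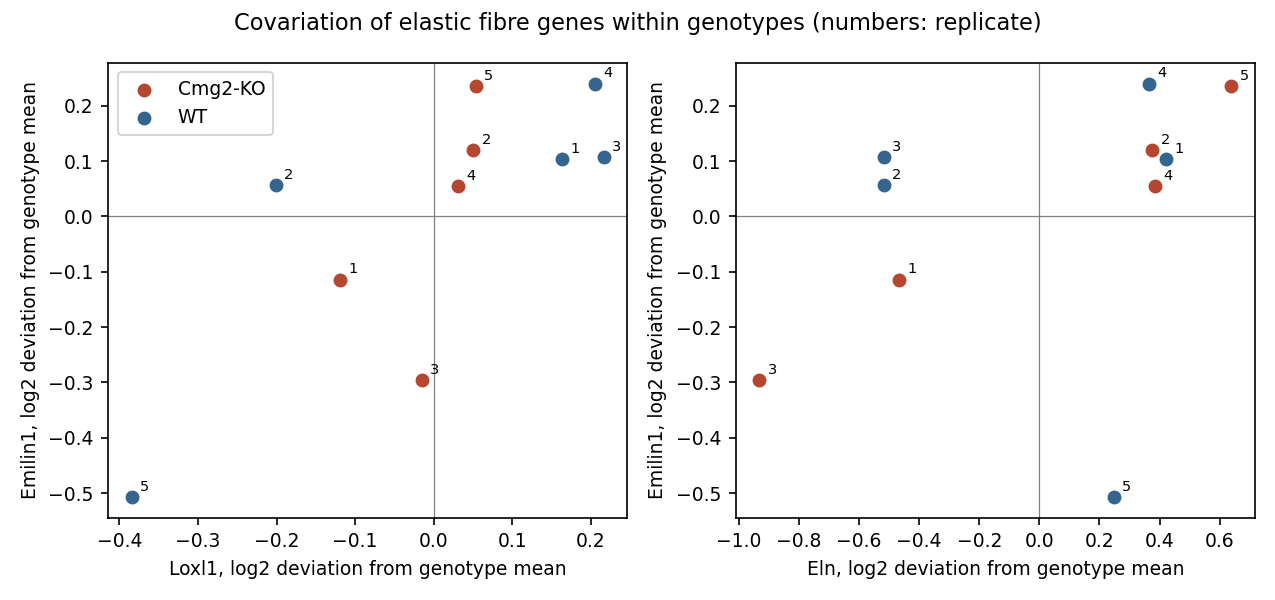
Deviation from the genotype mean (log2 units, both axes) of Emilin1 against Loxl1 (left) and against Eln (right), with points numbered by replicate. WT 5 lies at the lower left for Loxl1 and at the lower right for Eln, and r over the 10 libraries was 0.76 for Loxl1 and 0.40 for Eln.

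Being in the table is itself a call, an unadjusted p-value under 0.05 in the authors' deposited table, and 6.63% of the 19894 genes behind its adjustment carry it. That share is the background of each count of table genes below. On a list of 24 elastic fibre and microfibril genes, 4 were in the table. Of these, Eln, Emilin1 and Ltbp1, chosen for being higher, were higher in Cmg2-KO and the proteoglycan gene Vcan (versican) was lower. The median log2 fold change of the 4 was 0.35, a value above 0 that follows from that choice and does not describe the list. The median over all 1308 genes tested was -0.15, and 48.2% of them were higher in Cmg2-KO. The other 20 genes of the list, the fibrillin and fibulin genes among them, were not analysed here. Of 7 lysyl oxidase genes and partners, only Loxl1 was in the table. Vcan stood at 261, 228, 218, 246 and 179 scaled counts in Cmg2-KO libraries 1 to 5, and at 493, 558, 283, 274 and 186 in WT libraries 1 to 5. Its log2 fold change was -0.56 ± 0.27 (SE, limma), with WT 1 and WT 2 far above the other libraries and WT 5 within the Cmg2-KO range.

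Of 12 genes that release or receive TGF-β, which Ltbp1 stores, 2 were in the table (6.63% of all genes are), both higher in Cmg2-KO. Thbs1, encoding thrombospondin-1, an activator of latent TGF-β, stood at 993, 1380.3, 723, 1971 and 1559 scaled counts in Cmg2-KO libraries 1 to 5, and at 1104, 672, 876, 1306 and 714 in WT libraries 1 to 5. The groups overlapped, and the log2 difference was 0.47 ± 0.27 (SE, limma). The receptor gene Tgfbr1 averaged 1576 ± 168 in Cmg2-KO and 1307 ± 133 in WT (SD, n = 5 each), a log2 fold change of 0.27 ± 0.09 (SE, limma). Of a list of 10 target genes of TGF-β, 0 were in the table. With 6.63% of all genes there, 0 of 10 is near that share and is no result about TGF-β targets.

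Among 20 elastin-degrading proteases and protease inhibitors, 2 were in the table (6.63% of all genes are), both of them inhibitor genes higher in Cmg2-KO. Serpine2, encoding a serine protease inhibitor, stood at 452, 542, 594, 411 and 399 scaled counts in Cmg2-KO libraries 1 to 5, and at 268, 122, 299.7, 382 and 257 in WT libraries 1 to 5. Every Cmg2-KO library lay above every WT library, and the log2 fold change was 0.92 ± 0.26 (SE, limma). Timp1, an inhibitor of matrix metalloproteinases, averaged 1091 ± 169 in Cmg2-KO and 804 ± 129.5 in WT (SD, n = 5 each), and overlapped through WT 2.

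Of the 5 pathway genes other than the 4 chosen ones, limma called 0 at an adjusted p under 0.05, where 0.0765% of the genes tested were called higher and 0.153% lower. At an unadjusted limma p under 0.05 there were 3 of the 5, against 79.1% of the genes tested. DESeq2 on the recovered reads called 1 of the 5, Serpine2, higher, where it called 2.3% of genes higher and 1.38% lower. On the same reads edgeR called 0 of the 5, with 0% of genes higher and 0.0768% lower, and limma-voom called 0 of the 5, with 0% in either direction. All 5 entered the table through this contrast, so these counts are a description.

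**Figure D4:**
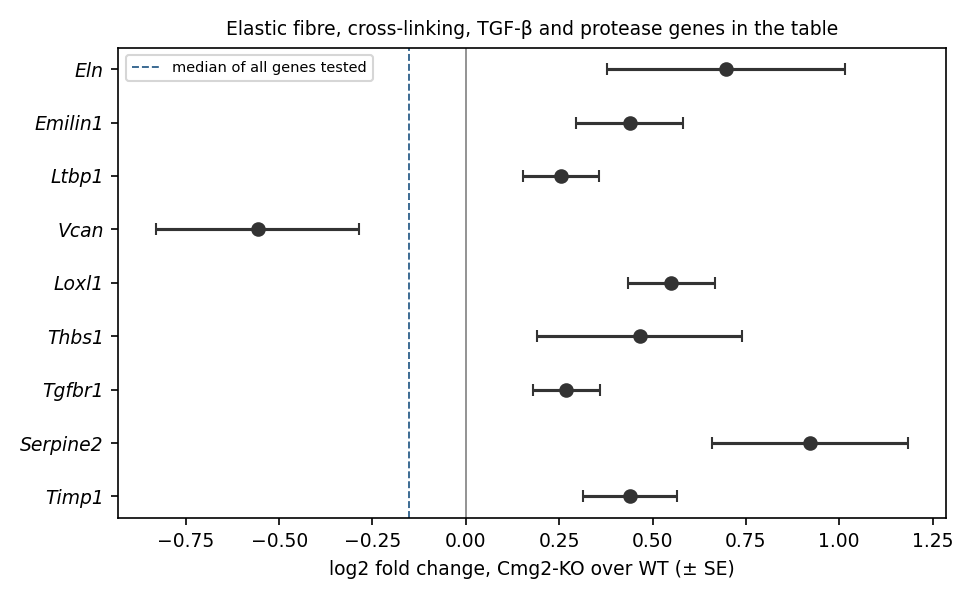
Log2 fold change, Cmg2-KO over WT (horizontal axis, points with SE from limma), of the 9 elastic fibre, cross-linking, TGF-β and protease-inhibitor genes in the table. The dashed line is the median of all genes tested, -0.15. Vcan, at -0.56, is the only gene of the 9 below 0.

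Within the genotypes, the 5 other pathway genes were set against the 4 elastic fibre genes, and no relation passed after adjustment. Thbs1 had the highest values. Its r was 0.82 with Eln (exact permutation within genotypes, p = 0.0141, adjusted p = 0.206 over 20 relations) and 0.70 with Emilin1 (p = 0.0206, adjusted p = 0.206). Spearman's rho was 0.85 with Eln (exact permutation p = 0.00931, adjusted p = 0.186) and 0.75 with Emilin1 (adjusted p = 0.336). Without Cmg2-KO 3 and Cmg2-KO 4, the libraries farthest from its median, r was 0.73 with Eln and 0.70 with Emilin1.

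Markers of matrix-producing and neighbouring cell types stood in the table in both directions, where 6.63% of all genes stand. Of 17 smooth muscle genes, 9 were in the table, all lower in Cmg2-KO, and their summed level ran from 25352 to 37719 scaled counts in Cmg2-KO and from 30622 to 50316 in WT. Of 10 mesothelial genes, 7 were in the table, all higher, with sums of 4549.7 to 7839 in Cmg2-KO and 3682 to 6616 in WT. Of 14 fibroblast genes, the 2 in the table (Dcn and Pi16) were both lower, with sums of 1509 to 2669 in Cmg2-KO and 1957 to 5256 in WT. Pericyte genes (2 of 8), endothelial genes (1 of 10) and lung epithelial genes (2 of 10, Sftpb and Scgb1a1) were lower, and 0 of 8 myofibroblast genes were in the table. Each of these markers had reads in all 10 libraries. The sums cover only markers in the table, which entered it through the genotype contrast, and Eln was chosen for being higher. That Eln stood higher and the summed smooth muscle markers lower in Cmg2-KO is therefore a description only. In whole lung, fewer cells of a type and less RNA per cell cannot be told apart.

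Inside the genotypes, the 4 genes showed no relation to these marker sums that passed. Of 12 relations, of each gene to the smooth muscle, mesothelial and fibroblast sums over 10 libraries, the lowest adjusted p was 0.847 (exact permutation within genotypes, Pearson) and 0.802 (Spearman). For Eln, r was 0.12 with smooth muscle, -0.06 with mesothelial and 0.45 with fibroblast markers, and rho 0.35, -0.40 and 0.55. For Loxl1, r was 0.38, 0.09 and 0.64, and rho 0.25, 0.30 and 0.15, on the same 3 sums. Without the 2 libraries farthest from the median of each sum, r of Eln was -0.38, -0.18 and 0.30, and that of Loxl1 0.18, 0.54 and 0.62. The part of cell composition in the difference between genotypes was not tested.

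The genes most like the 4 in their within-genotype pattern came from other pathways. Likeness was the Pearson r, over 10 libraries, with the mean of the 4 standardised patterns, among 798 named genes with a mean of at least 50 scaled counts. The highest were Tube1 (0.95), which encodes epsilon-tubulin, Xbp1 (0.88), a transcription factor of the unfolded protein response, Syvn1 (0.87), a ubiquitin ligase of the endoplasmic reticulum, Raver2 (0.87) and Kif5c (0.86), a kinesin motor. The lowest were Atg14 (-0.91), an autophagy gene, and Bcl2l14 (-0.85). These are the extremes of 798 values and carry no test. Xbp1 averaged 4329 ± 505 scaled counts in Cmg2-KO and 3750.4 ± 363 in WT, and Syvn1 1205 ± 103 in Cmg2-KO and 1021 ± 56.6 in WT (SD, n = 5 each). Xbp1 correlated at 0.69 with Eln, 0.63 with Loxl1, 0.77 with Emilin1 and 0.44 with Ltbp1. For Syvn1 these values were 0.78, 0.53, 0.66 and 0.52. Tube1 averaged 57.9 ± 9.95 in Cmg2-KO and 74.1 ± 7.49 in WT (SD, n = 5 each), so the gene most alike within genotypes had the opposite direction between them. At so low a level, counting error is a larger share of each value than for the 4 genes. Its part in the pattern of Tube1 was not tested.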

How the data were processed

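Total RNA was extracted with Trizol from frozen lungs and made into libraries with a NEBNext Ultra RNA kit, per the labels' protocols. The submitters' processing notes name HISAT2 2.0.5 and featureCounts 1.5.0-p3. The sources used here give no build, no annotation and no tool behind the authors' p-values. The deposited table holds a signal per library (read counts divided by a size factor, per the values), the authors' group means of it, a log2 fold change, a fold (ratio), unadjusted and adjusted p-values, and a gene length used only for levels per kilobase. All 100% of values were whole multiples of 1 read (tolerance 0.02 reads), worth 0.869 to 1.11 scaled counts. The authors' adjusted p-values fit 19894 genes.

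The members and lists were chosen with earlier results of these data known. The named genes were the 4 members, every table gene of 5 pathway lists, up to 4 genes of each cell type list, and the 5 most and 2 least alike genes. limma 3.58.1 (trend, robust; R 4.3.3) was fitted to log2(scaled count + 1) of the 1308 genes above 0.5 in at least 5 libraries, with Benjamini-Hochberg adjustment over 19894 genes. Fold changes on this scale understate low genes. The script was tested on simulated data. Correlations used genotype-centred values and exact permutation within genotypes (scipy 1.17.1), and those with markers and pathway genes were added after the values were seen. Alternatives used other scalings, pseudocounts, filters, adjustments, the replicate block, each library left out, and edgeR 4.0.16, DESeq2 1.42.0 and limma-voom on the recovered reads of 9 libraries. WT 4 stayed out of these as the library whose reads are worth closest to 1 scaled count (1.01). Its values were also whole multiples of 1 read, and WT 1, at 1.02, was kept, so the values themselves do not require leaving WT 4 out.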

Additional observations from a re-analysis of the deposited data

Results flagged for a closer look

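Dixon's criterion marks the highest or lowest of 5 libraries of a genotype if the gap to its neighbour exceeds 0.71 of their log2 range. Over the 9 elastic fibre and pathway genes it was applied to 18 groups and marked 1, where chance at 1 in 20 gives about 0.9. Emilin1 in WT 5 stood at 1212 scaled counts, against 1791 to 2035 in the other WT libraries. Loxl1 was also lowest of the WT libraries in WT 5, at 1752, while Eln there, at 9967, was the median WT value.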

How the results depend on the processing

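The log2 fold changes of the 4 genes kept their sign under every alternative run. Leaving out 1 library at a time gave 0.54 to 0.93 for Eln, 0.45 to 0.60 for Loxl1, 0.31 to 0.51 for Emilin1 and 0.18 to 0.31 for Ltbp1. The other alternatives gave 0.60 to 0.84 for Eln, 0.46 to 0.60 for Loxl1, 0.34 to 0.50 for Emilin1 and 0.16 to 0.29 for Ltbp1. The elastic fibre list had 3 higher, the 3 genes chosen for being higher, and 1 lower. That held under the 3 other scalings and without each library, the alternatives run for it.

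The number of genes past the adjusted limma threshold, 1 higher and 2 lower, changed with the adjustment and other settings. It was 2 higher with a pseudocount of 10 and 2 without the trend and robust options, 141 higher and 116 lower adjusted over the table alone, and 0 and 0 with the replicate block. On the 9 libraries without WT 4 it was 30 and 18 in DESeq2, 0 and 1 in edgeR and 0 and 0 in limma-voom, against 0 and 1 in limma without WT 4. Leaving out 1 library gave 0 to 4 higher and 1 to 2 lower. Adjustment over the table alone counts fewer genes, and the cause of the other changes was not tested. Same-numbered libraries correlated at -0.0156 to 0.0873 in their deviations, and 5 of 10 libraries correlated best with their own number. With 5 libraries of the other genotype to choose from, that is more than chance alone would give on average. Whether the numbers mark pairs was not tested. The main fit did not take them as pairs, and the replicate block is given as an alternative.

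For Loxl1 and Emilin1 r was 0.74 by median-ratio (adjusted p = 0.182) and by TMM scaling (0.135), 0.70 by upper-quartile scaling (0.355), 0.62 without the 2 farthest libraries and 0.91 with the replicate block (0.15), none past the threshold in exact permutation tests. Leaving out 1 library gave 0.41 to 0.87. The correlations of Loxl1 and Ltbp1 (0.06 in the main setting) and of Eln and Ltbp1 (0.28) changed sign under some alternatives. That of Loxl1 and Ltbp1 was -0.0110 by median-ratio, -0.00439 by TMM and -0.141 by upper-quartile scaling, and -0.0609 to 0.225 without 1 library. That of Eln and Ltbp1 was -0.0524 without the 2 farthest libraries and -0.0407 to 0.467 without 1 library, and that of Eln and Emilin1 0.15 to 0.88. That of Eln and Loxl1 was 0.83 with the replicate block (adjusted p = 0.325, exact permutation) and 0.0567 to 0.487 without 1 library. With the replicate block, each Cmg2-KO value mirrors its same-numbered WT value. Both r values with the block thus rest on 5 differences and are not comparable with r over 10 libraries. The cause of the other changes was not tested.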
